A study of Mus musculus with 12 samples.

Results

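The genes described here are 10 core clock and clock output genes, measured in mouse colonocytes, which form the lining epithelium of the colon. They are Arntl, Clock, Per1, Per2, Per3, Cry1, Nr1d1, Nr1d2, Dbp and Tef. They were taken by gene symbol from both deposited tables, and all 10 were found among the 23790 genes kept. Their levels were compared between genotypes within each table and set side by side between the tables, because the hour at which tissue was collected can set the level of such genes. The sources used here do not give that hour.

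RNA-seq of polyadenylated RNA was made from purified colonocytes in 12 libraries, 3 in each of 4 groups. The KO DSS group is colonocytes that lack C15ORF48/miR-147, a locus shared by a small protein and a microRNA, from mice given DSS (dextran sodium sulfate, a sulfated sugar polymer that damages colon epithelium) at 3% for 3 days. The WT DSS group is wild-type colonocytes under the same DSS. The KO untreated and WT untreated groups are the same genotypes without DSS, going by the titles and the treatment field, although the labels' free text on treatment names DSS for every library. The sources used here give no strain, sex or age of the mice, no design of the knockout allele and no word on whether a group's libraries are separate mice, so p-values measure only the spread between these libraries. DSS and untreated libraries stand in tables that the authors normalised separately, so DSS and table cannot be told apart.

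The mammalian clock is a feedback loop of transcription with a period of about a day. ARNTL (also called BMAL1) and CLOCK form a dimer that binds E-boxes and turns on the Per, Cry, Nr1d and PAR-domain bZIP genes; PER and CRY proteins then block that dimer, while the nuclear receptors NR1D1 and NR1D2 (REV-ERB alpha and beta) repress Arntl through ROR response elements, or ROREs. DBP and TEF, PAR-domain bZIP factors, carry the rhythm to output genes through D-boxes. In most mouse tissues, the gut included, Arntl and its partner Npas2 therefore peak at the opposite time of day from Nr1d1, Dbp and Per3.

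Matches to the motifs of the loop are shown because the members differ in which of them they carry near the start of the gene. Whether these matches are bound was not measured. RefSeq promoters (GRCm38.p6, from 250 bases before to 50 after a start site) were matched for 9 of the 10 members, all but Per2. Exact matches to the E-box CACGTG, the E-prime box CACGTT, the D-box TTATGTAA or TTACGTAA and the RORE core TAGGTCA or TGGGTCA were sought on both strands, and these motifs do not overlap each other in the sites below. Each site is written 5′ to 3′ on the strand of its gene with the match in capitals, so that an E-prime box on the other strand reads AACGTG.
Per3 D-box at −205, chr4:151044852-151044881, minus strand: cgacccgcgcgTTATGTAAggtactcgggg
Per3 D-box at −158, chr4:151044805-151044834, minus strand: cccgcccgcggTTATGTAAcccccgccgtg
Arntl RORE core at 30, chr7:113207530-113207558, plus strand: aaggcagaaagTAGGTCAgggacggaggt
Cry1 E-box at −60, chr10:85185098-85185125, minus strand: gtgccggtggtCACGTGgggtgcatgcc
Cry1 E-prime box at −79, chr10:85185117-85185144, minus strand: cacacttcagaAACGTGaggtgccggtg
Per1 E-box at −166, chr11:69098772-69098799, plus strand: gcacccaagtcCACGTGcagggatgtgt
Nr1d1 E-prime box at −28, chr11:98775389-98775416, minus strand: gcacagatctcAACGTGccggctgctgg
Tef E-box at −127, chr15:81802535-81802562, plus strand: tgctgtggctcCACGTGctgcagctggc
Tef E-box at −138 of its second start site, chr15:81811265-81811292, plus strand: acctggcccagCACGTGtctacatcgtt

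The numbers after the site names are distances in bases from the start site. Counted per gene over all of its start sites, an E-box stood in 3 of the 9 matched members (Cry1, Per1 and Tef), against 8.09% of 27025 genes, and an E-prime box in 2 (Cry1 and Nr1d1), against 5.44%. A D-box stood in 1 member, Per3, against 1.23% of genes, and its single window held 2 of them, as did 0.0244% of 32851 windows (2 or more). The RORE core stood in 1 member, Arntl, near the later of its 2 start sites, against 7.35% of genes. Per single window these shares were 7.15%, 4.68%, 1.06% and 6.45%. These windows of Clock, Dbp and Nr1d2 held none of the 4 motifs. Sites outside the windows were not searched.

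The deposited unit is RPKM, reads divided by the length of the gene and the depth of its library, so levels can be compared between genes. The values correspond to 12621697 to 16707030 reads per DSS library and 20606918 to 26839250 per untreated library. AA467197, the mouse gene of C15ORF48, held 53 to 90 reads in KO DSS libraries against 4013 to 5304 in WT DSS libraries, and 52 to 89 in KO untreated libraries against 5851 to 6493 in WT untreated libraries. The 10 clock genes held between 138 reads (Cry1) and 4757 reads (Tef) per library. All 10 stood at 1 RPKM or more in 12 of 12 libraries, so none depended on the filter on low values. Tests were made with limma on log2(RPKM + 1) over all genes that reached 1 RPKM in at least 3 of the compared libraries, and a gene was called at a Benjamini-Hochberg adjusted p under 0.05.

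Of the 10 clock genes, 0 were called between KO and WT colonocytes under DSS, in a comparison where 84 of 10990 genes (0.764%) were called. In untreated mice 0 of 10 were called, and 2 of 11072 genes (0.0181%) were called in all. The interaction, which is the KO minus WT difference under DSS less that in untreated mice, called 0 of 10 clock genes and 158 of 11306 genes (1.40%). limma's voom on whole reads recovered from the RPKM also called 0 of 10 in each comparison. At an unadjusted p under 0.05 stood 2 of 10 under DSS (Nr1d1 and Clock, against 18.7% of all genes), 0 of 10 in untreated mice (9.09%) and 1 of 10 in the interaction (Nr1d1, 19.0%), shares near those of all genes.

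**Figure D1:**
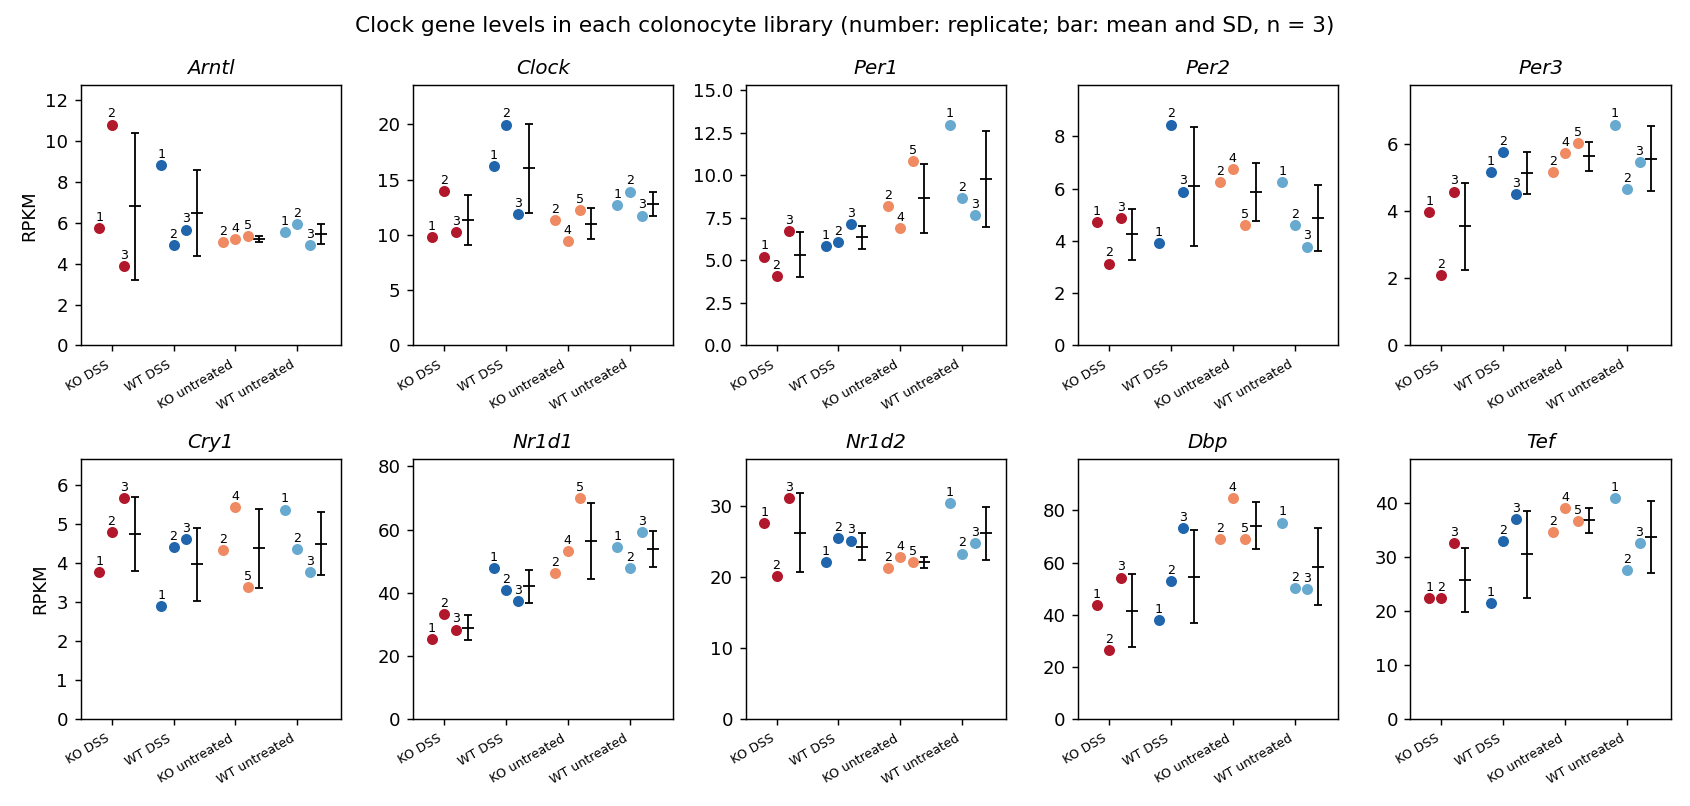
RPKM (vertical axes, each from 0) of the 10 clock genes in KO DSS, WT DSS, KO untreated and WT untreated colonocytes. Each point is a library with its replicate number beside it, and the bars give the mean and SD of the 3 libraries of a group. Arntl spans 3.88 to 10.8 RPKM among the DSS libraries and 4.92 to 5.91 among the untreated libraries.

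Arntl, the activator whose loss stops the clock, lies in the region 113207465 to 113314126 of chromosome 7, plus strand (ENSMUSG00000055116.8; positions are GENCODE M21 on GRCm38). It stood at 5.72, 10.8 and 3.88 RPKM in KO DSS libraries 1, 2 and 3, against 8.83, 4.90 and 5.67 RPKM in WT DSS libraries 1, 2 and 3. In untreated mice it stood at 5.05, 5.19 and 5.36 RPKM in KO libraries 2, 4 and 5, against 5.53, 5.91 and 4.92 RPKM in WT libraries 1, 2 and 3. Under DSS the highest library of each genotype lies well above the other two and the genotypes overlap, whereas the 6 untreated libraries lie close together. The KO minus WT difference was 0.00017 under DSS on the log2(RPKM + 1) scale (95% interval −0.70 to 0.70, limma adjusted p = 0.9996) and −0.06 in untreated mice (−0.27 to 0.16, adjusted p = 0.854).

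Clock, the partner of ARNTL (chromosome 5, 76209868 to 76304792, minus strand, ENSMUSG00000029238.11), stood at 9.79, 14.0 and 10.3 RPKM in the KO DSS libraries, against 16.2, 19.97 and 11.9 RPKM in the WT DSS libraries. It stood at 11.4, 9.46 and 12.2 RPKM in the KO untreated libraries, against 12.7, 13.9 and 11.7 RPKM in the WT untreated libraries. KO was lower on average in both tables and the genotypes overlapped in both. The difference was −0.45 under DSS (SE 0.20, limma adjusted p = 0.266) and −0.20 in untreated mice (SE 0.11, adjusted p = 0.596). With the trend with gene length taken out, the DSS difference of this long gene was −0.16.

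Nr1d1, the repressor of Arntl (chromosome 11, 98767932 to 98775333, minus strand, ENSMUSG00000020889.11), had the smallest p of the members under DSS. It stood at 25.3, 33.2 and 28.3 RPKM in the KO DSS libraries, against 47.9, 40.8 and 37.4 RPKM in the WT DSS libraries. It was the only member whose genotypes did not overlap under DSS, a state shared by 23.0% of the genes tested, 11.9% with KO lower. The difference was −0.52 (SE 0.15, 95% interval −0.85 to −0.20), with a limma adjusted p of 0.131 over all genes that ran from 0.0642 to 0.440 over the other settings tried. Leaving out each DSS library in turn kept the difference between −0.63 and −0.43. The authors' deposited table gives Nr1d1 a log2 fold change of −0.54 with a p-value of 0.00479 and a false discovery rate of 0.162.

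In untreated mice Nr1d1 stood at 46.3, 53.2 and 69.9 RPKM in the KO libraries, against 54.5, 47.9 and 59.3 RPKM in the WT libraries, which overlap. The difference there was 0.05 (SE 0.15, limma adjusted p = 0.929). The DSS difference minus the untreated difference was −0.57 (SE 0.22, limma adjusted p = 0.189), and this too was not called. The last bases of Nr1d1 overlap those of Thra, a thyroid hormone receptor gene on the opposite strand, over 1075 bases. Thra reached at most 19.1 RPKM. The library kit keeps strand, but the sources used here do not say whether the counting used it.

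Nr1d2, the related receptor (chromosome 14, 18204054 to 18239127, minus strand, ENSMUSG00000021775.11), did not share that pattern under DSS. It stood at 27.5, 20.1 and 31.0 RPKM in the KO DSS libraries, against 22.1, 25.5 and 25.1 RPKM in the WT DSS libraries, and the difference was 0.09 (SE 0.16, limma adjusted p = 0.774). In untreated mice it stood at 21.2, 22.8 and 22.0 RPKM in the KO libraries, against 30.3, 23.3 and 24.7 RPKM in the WT libraries. Every KO untreated library lay below every WT untreated library, as for 16.0% of the genes tested (7.68% with KO lower). That difference was −0.23 (SE 0.10, limma adjusted p = 0.549).

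The Per genes encode the repressors whose build-up closes the loop. Per1 (chromosome 11, 69095217 to 69109960, plus strand, ENSMUSG00000020893.17) stood at 5.22, 4.06 and 6.70 RPKM in the KO DSS libraries, against 5.85, 6.08 and 7.12 RPKM in the WT DSS libraries. It stood at 8.20, 6.88 and 10.9 RPKM in the KO untreated libraries, against 12.97, 8.66 and 7.67 RPKM in the WT untreated libraries. The genotypes overlap in both tables. The differences were −0.23 under DSS (SE 0.17, limma adjusted p = 0.454) and −0.15 in untreated mice (SE 0.20, adjusted p = 0.824).

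Per2 (chromosome 1, 91415982 to 91459324, minus strand, ENSMUSG00000055866.9) stood at 4.72, 3.13 and 4.88 RPKM in the KO DSS libraries, against 3.91, 8.45 and 5.89 RPKM in the WT DSS libraries. It stood at 6.26, 6.76 and 4.61 RPKM in the KO untreated libraries, against 6.24, 4.603 and 3.78 RPKM in the WT untreated libraries. KO averaged lower under DSS and higher in untreated mice, with overlap in each table. The differences were −0.40 (SE 0.24, limma adjusted p = 0.368) and 0.23 (SE 0.18, adjusted p = 0.682), and their own difference was −0.63 (SE 0.33, adjusted p = 0.321).

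Per3, whose promoter window holds the D-boxes shown above (chromosome 4, 151003652 to 151044665, minus strand, ENSMUSG00000028957.12), stood at 3.97, 2.11 and 4.59 RPKM in the KO DSS libraries, against 5.17, 5.78 and 4.51 RPKM in the WT DSS libraries. It stood at 5.17, 5.73 and 6.03 RPKM in the KO untreated libraries, against 6.59, 4.67 and 5.47 RPKM in the WT untreated libraries. The KO DSS libraries held the lowest value of all 12, in library 2, and the genotypes overlap in both tables. The differences were −0.47 under DSS (SE 0.21, limma adjusted p = 0.276) and 0.02 in untreated mice (SE 0.12, adjusted p = 0.964). Per3 lies inside the span of Camta1 on the same strand, and Camta1 reached at most 1.48 RPKM.

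Cry1, the repressor that acts with PER (chromosome 10, 85131700 to 85185064, minus strand, ENSMUSG00000020038.10), stood at 3.77, 4.79 and 5.66 RPKM in the KO DSS libraries, against 2.89, 4.41 and 4.62 RPKM in the WT DSS libraries. It stood at 4.32, 5.42 and 3.39 RPKM in the KO untreated libraries, against 5.37, 4.37 and 3.76 RPKM in the WT untreated libraries. The genotypes overlap in both tables. The differences were 0.21 under DSS (SE 0.19, limma adjusted p = 0.529) and −0.04 in untreated mice (SE 0.16, adjusted p = 0.952).

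Dbp, the output factor with a large daily swing in most tissues (chromosome 7, 45705088 to 45710203, plus strand, ENSMUSG00000059824.12), had the highest mean RPKM of the 10 members in each of the 4 groups. It stood at 43.7, 26.6 and 54.3 RPKM in the KO DSS libraries, against 37.8, 52.9 and 73.2 RPKM in the WT DSS libraries. It stood at 68.9, 84.6 and 69.0 RPKM in the KO untreated libraries, against 75.4, 50.1 and 49.8 RPKM in the WT untreated libraries. The genotypes overlap in both tables, with KO lower on average under DSS and higher in untreated mice.

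For Dbp the differences were −0.40 under DSS (SE 0.29, limma adjusted p = 0.452) and 0.36 in untreated mice (SE 0.17, adjusted p = 0.549). The DSS difference minus the untreated difference was −0.75, the largest in size of the 10 members, with a 95% interval of −1.57 to 0.06 (limma adjusted p = 0.301). Dbp overlaps Sphk2, a sphingosine kinase gene on the opposite strand, over 737 bases, and Sphk2 reached at most 28.9 RPKM.

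Tef, the related output factor (chromosome 15, 81802421 to 81826863, plus strand, ENSMUSG00000022389.15), stood at 22.3, 22.4 and 32.6 RPKM in the KO DSS libraries, against 21.5, 32.9 and 36.9 RPKM in the WT DSS libraries. It stood at 34.5, 39.1 and 36.6 RPKM in the KO untreated libraries, against 40.8, 27.5 and 32.6 RPKM in the WT untreated libraries. The genotypes overlap in both tables. The differences were −0.22 under DSS (SE 0.22, limma adjusted p = 0.579) and 0.14 in untreated mice (SE 0.13, adjusted p = 0.742).

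**Figure D2:**
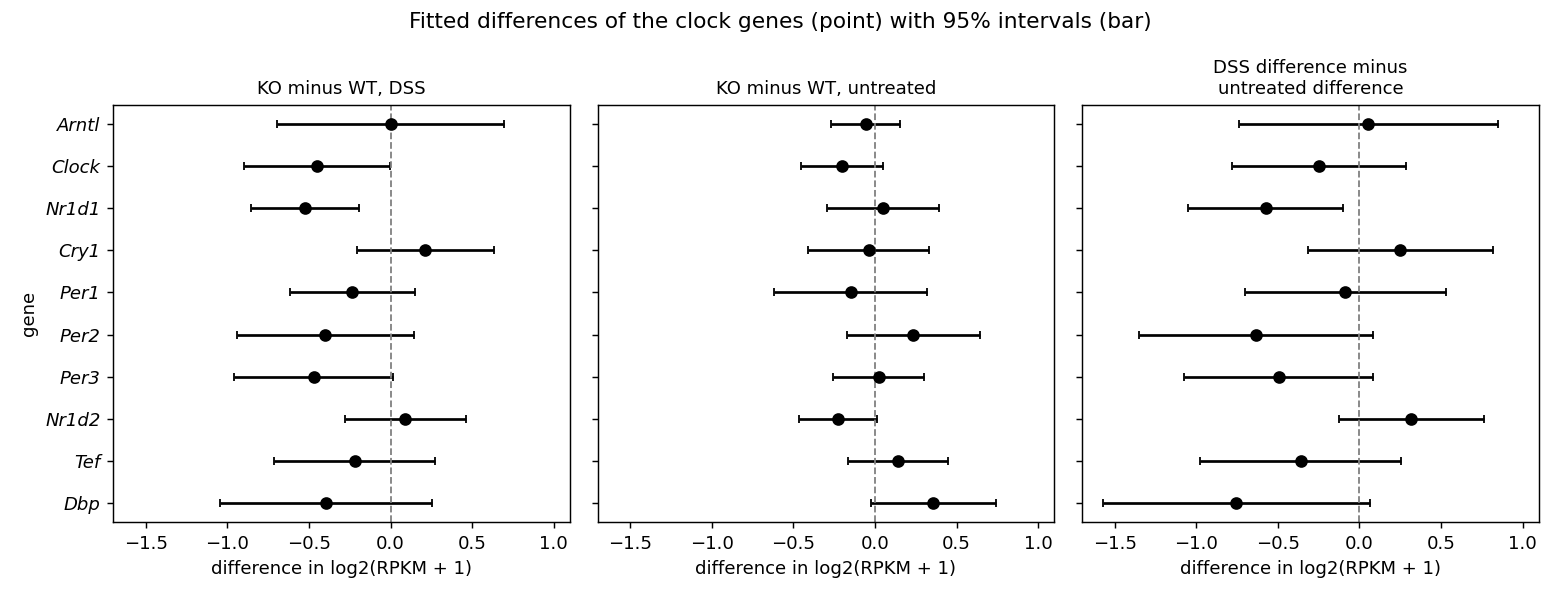
Fitted differences of the 10 clock genes in log2(RPKM + 1) with their 95% intervals (horizontal axes) for KO minus WT under DSS, KO minus WT in untreated mice, and the first minus the second. The Nr1d1 interval under DSS runs from −0.85 to −0.20, and the Arntl interval there from −0.70 to 0.70.

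As a group, 7 of the 10 members had a fitted difference below 0 under DSS, against 50.8% of the genes tested, and their median was −0.31 against −0.01 for all genes tested. In untreated mice 5 of 10 lay below 0 (46.7% of all), with a median of −0.01 against 0.01. In the interaction 7 of 10 lay below 0 (50.4%), with a median of −0.30 against −0.0036. The members are not independent of each other, since several moved together between libraries of the same group, as follows.

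Under DSS the clock genes varied between libraries of the same genotype. KO DSS library 2 and WT DSS library 1 held the highest Arntl of the 12 libraries (10.8 and 8.83 RPKM) and the lowest Dbp (26.6 and 37.8 RPKM). Npas2, which can take the place of CLOCK, stood at 2.76, 3.95 and 2.05 RPKM in the KO DSS libraries, against 3.96, 2.37 and 1.71 RPKM in the WT DSS libraries, so the same libraries were highest of their groups. Ciart, a clock-controlled repressor, stood at 6.17, 4.08 and 8.20 RPKM in the KO DSS libraries, against 3.26, 5.84 and 8.82 RPKM in the WT DSS libraries, and here they were lowest. Other DSS libraries lay as far from their group mean on the opposite side: WT DSS library 3 lay 0.46 above the mean in Dbp, and KO DSS library 3 lay at −0.58 in Arntl and 0.44 above the mean in Dbp.

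The remaining members followed these libraries to different degrees. Per1, Per2 and Nr1d2 were lowest of their group in both, whereas Per3 was lowest only in KO DSS library 2 and Cry1 and Tef only in WT DSS library 1. Clock was highest of its group in KO DSS library 2 (14.0 RPKM) but not in WT DSS library 1 (16.2 RPKM). Nr1d1 was highest of its group in KO DSS library 2 and in WT DSS library 1 (33.2 and 47.9 RPKM), on the side of Arntl and not of Dbp. Without these libraries, an alternative chosen after the values were seen, 0 of 10 members were called under DSS, and the KO minus WT differences were −0.53 for Nr1d1, −0.13 for Arntl, −0.35 for Dbp and −0.21 for Per3 (limma adjusted p = 0.293, 0.784, 0.463 and 0.625).

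**Figure D3:**
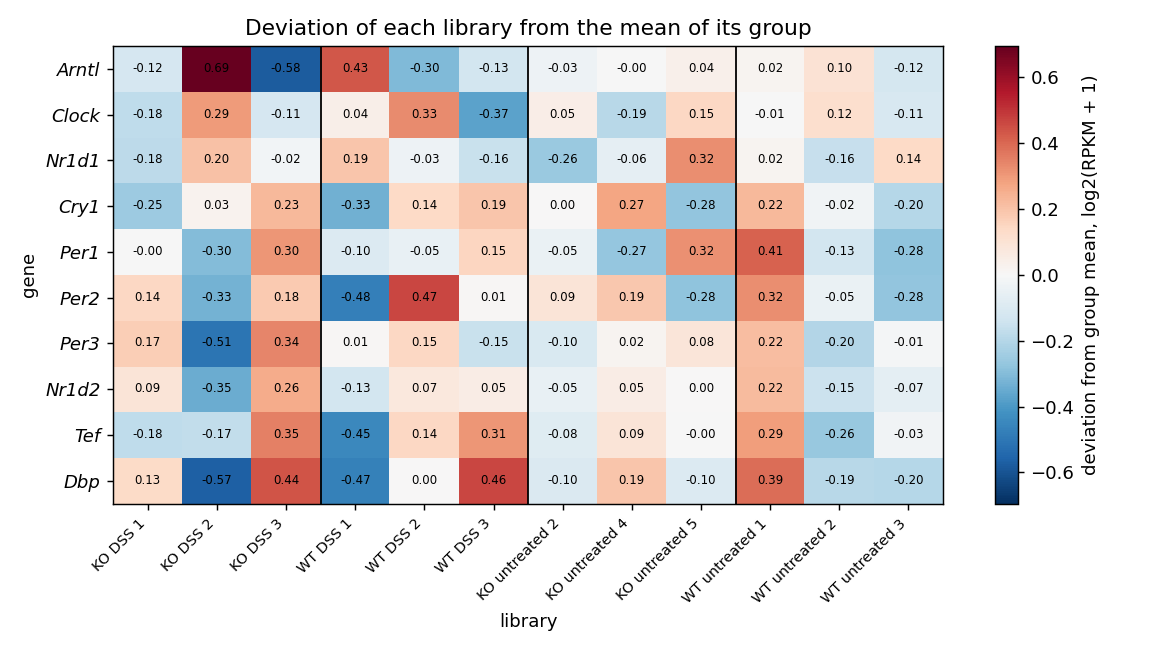
Deviation of each library (columns) from the mean of its own group in log2(RPKM + 1), for the 10 clock genes (rows). Red is above and blue below the group mean. Arntl lies 0.69 above the mean in KO DSS library 2 and 0.43 above in WT DSS library 1, where Dbp lies at −0.57 and −0.47.

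The SD of Arntl between libraries of the same group was 0.53 on the log2(RPKM + 1) scale under DSS, above 98.7% of the genes tested, and 0.08 in untreated mice, above 23.6%. The SD of Dbp was 0.49 under DSS (above 98.1% of genes) and 0.27 in untreated mice (above 91.4%). The median over all genes tested was 0.19 under DSS and 0.12 in untreated mice. Above the 90th percentile stood 4 members under DSS (Arntl, Per2, Dbp and Tef) and 3 in untreated mice (Per1, Per2 and Dbp), and 9 of 10 exceeded the median in each table. Nr1d1 was the exception under DSS, with 0.18, at the level of the median gene. These percentiles describe the libraries, since genes with few reads vary more from counting alone.

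In untreated mice WT library 1 held the highest Dbp, Per1, Per2, Per3, Cry1, Nr1d2 and Tef of the 3 WT untreated libraries, among them 75.4 RPKM of Dbp against 50.1 and 49.8, and 12.97 RPKM of Per1 against 8.66 and 7.67. Its Arntl, 5.53 RPKM, lay between the 5.91 and 4.92 RPKM of the other two. Ciart followed Dbp again, at 7.04, 8.76 and 6.40 RPKM in the KO untreated libraries, against 10.1, 6.003 and 5.94 RPKM in the WT untreated libraries. Leaving out WT untreated library 1 left 0 of 10 members called.

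Set side by side across the tables, with no test, the levels of Arntl, Cry1 and Nr1d2 covered overlapping ranges under DSS and in untreated mice. Nr1d1 ranged from 25.3 to 47.9 RPKM in the 6 DSS libraries and from 46.3 to 69.9 RPKM in the 6 untreated libraries. Per1 ranged from 4.06 to 7.12 RPKM under DSS and from 6.88 to 12.97 RPKM in untreated mice. Dbp ranged from 26.6 to 73.2 RPKM under DSS and from 49.8 to 84.6 RPKM in untreated mice. Each of these pairs of ranges meets or overlaps, and the Arntl range is wider under DSS on both sides (highest over lowest 2.78, against 1.20 in untreated mice).

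A ratio of 2 genes in the same library does not depend on the scaling of a table beyond the pseudocount of 1 RPKM. The log2 ratio of Arntl over Dbp, genes that peak at opposite times of day, was −2.74, −1.22 and −3.50 in the KO DSS libraries, against −1.98, −3.19 and −3.48 in the WT DSS libraries. It was −3.53, −3.79 and −3.46 in the KO untreated libraries, against −3.55, −2.89 and −3.10 in the WT untreated libraries. The means were −2.49 ± 1.16 in KO DSS, −2.88 ± 0.79 in WT DSS, −3.59 ± 0.17 in KO untreated and −3.18 ± 0.34 in WT untreated libraries (SD, n = 3 each). The genotypes overlap in both tables, and 3 of the 6 DSS libraries lie within the untreated range. KO DSS library 1 lies just above it, and KO DSS library 2 and WT DSS library 1 lie well above. The ratio of Arntl over Nr1d1 lay further apart between the tables, with no test. It ran from −2.59 to −1.54 in KO DSS and from −2.83 to −2.31 in WT DSS libraries. In untreated mice it ran from −3.48 to −2.97 in KO and from −3.35 to −2.82 in WT libraries. Only WT DSS library 2 (−2.83) lay within the untreated range. The ratios of Arntl over Per3 and of Arntl over Tef overlapped between the tables.

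**Figure D4:**
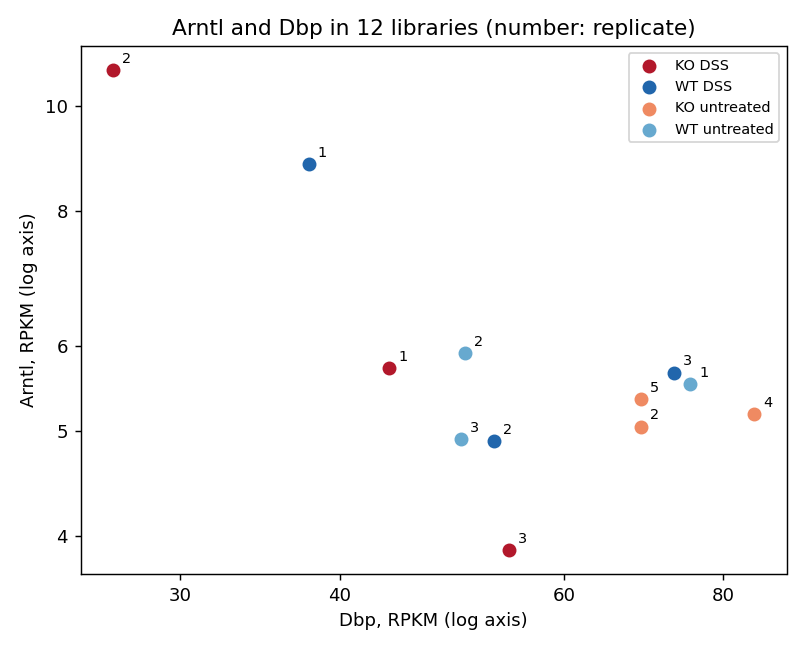
Arntl (vertical, RPKM, log axis) against Dbp (horizontal, RPKM, log axis) in the 12 libraries, coloured by group and numbered by replicate. KO DSS library 2 and WT DSS library 1 lie apart at the upper left, with 10.8 and 8.83 RPKM of Arntl and 26.6 and 37.8 RPKM of Dbp, and the untreated libraries form a band between 4.92 and 5.91 RPKM of Arntl.

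Which genes varied between libraries in the way Dbp did was described by the Pearson r over the 12 libraries after each group's mean was taken out, among 10833 other genes. The points share their libraries, and many genes move together between them, so r is a description only. Ciart was the gene most like Dbp, with r = 0.976 (0.972 within the DSS libraries and 0.991 within the untreated libraries). It was followed by Rbbp9 (0.934), Herpud1 (0.932), Smim24 (0.927) and Med30 (0.927). Among the 5 least like Dbp were Klf7 (−0.947), Stk38l (−0.939), Tmem63a (−0.937) and Ppip5k1 (−0.916).

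Among the members, Nr1d2 (r = 0.894, rank 16 of 10833) and Tef (0.848, rank 43) were most like Dbp. Of the other clock genes, Cry2 ranked 57 (0.834). Per2 (0.711), Per1 (0.638), Cry1 (0.627) and Per3 (0.620) were less close. On the other side stood Npas2 (−0.839, rank 32 from the low end), Arntl (−0.760, rank 139 from the low end), Clock (−0.643) and Nr1d1 (−0.474). The r of Arntl and Dbp was −0.681 without the 2 libraries farthest from the median of Dbp, KO DSS library 2 and WT DSS library 3. It was −0.887 over the DSS libraries and 0.134 over the untreated libraries, where Arntl varied little.

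A share of this likeness went with gene length. Of all genes, 8.28% had an r of 0.6 or more with Dbp and 8.42% had −0.6 or less, and the median r was 0.404 in the shortest 10% of genes and −0.533 in the longest 10%. With each library's trend with gene length taken out, an alternative chosen after the values were seen, those shares were 4.04% and 4.22% and the medians 0.026 and −0.043. Ciart then stayed first (0.963), and Tef ranked 2 (0.958), Nr1d2 8 (0.884), Cry2 19 (0.850) and Per2 63 (0.782), each nearer the top than before. Arntl ranked 39 from the low end (−0.815), nearer to it than before. Npas2 ranked 44 from the low end (−0.808), against 32 before, and Clock ranked 3694 from it (−0.167), against 604 before.

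**Figure D5:**
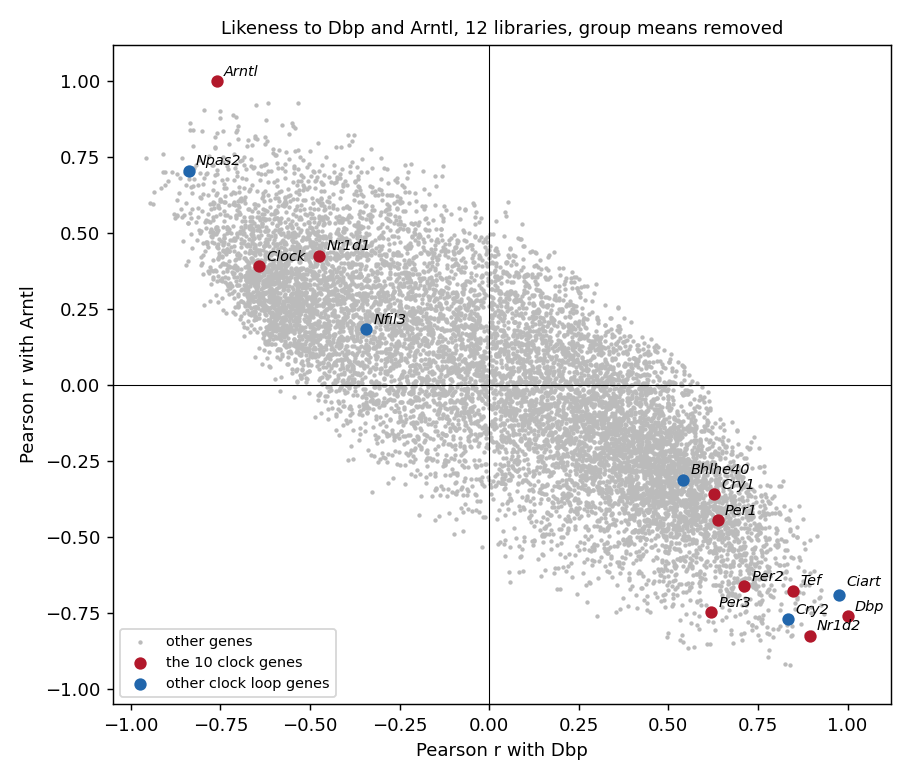
Pearson r with Dbp (horizontal) and with Arntl (vertical) over 12 libraries after taking out group means. Grey points are all other genes, red points the 10 clock genes (Arntl and Dbp have an r of 1 with themselves) and blue points 5 other clock loop genes. The cloud of all genes is itself tilted, and Ciart, Cry2, Nr1d2 and Tef lie at its lower right edge, opposite Arntl and Npas2.

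By the same measure the genes most like Arntl were Pla2g3 (r = 0.927), Slc30a4, a zinc transporter gene (0.927), Tprn (0.921), E2f2 (0.907) and Zbtb42 (0.901). The least like it were Lhpp (−0.922), Ltc4s, leukotriene C4 synthase (−0.916), Haus2 (−0.894), Zfp2 (−0.872) and Cbx2 (−0.866). Nr1d2 was the member farthest from Arntl (−0.825, rank 17 from the low end) and Npas2 ranked 118 on its side (0.705). Without KO DSS libraries 2 and 3, the farthest from the median of Arntl, these were −0.487 and 0.542. Over the DSS libraries the r with Arntl was −0.975 for Nr1d2 and 0.864 for Npas2. Over the untreated libraries, where Arntl varied little, it was −0.025 for Nr1d2 and −0.645 for Npas2, so these likenesses were seen under DSS only.

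The rest of the clock loop was described from a list of 20 genes, 14 of which were tested in each comparison. Of these 14, 0 were called in any of the 3 comparisons by limma, and 0, 1 and 1 had an unadjusted p under 0.05 under DSS, in untreated mice and in the interaction. The shares of all genes tested were 18.7%, 9.09% and 19.0% in that order. Their median difference was −0.10 under DSS, −0.02 in untreated mice and −0.13 in the interaction. Over all genes tested the medians were −0.01, 0.01 and −0.0036, which also stand beside the medians of the lists below. The smallest p values under DSS belonged to Nono, an RNA-binding partner of PER (−0.24), Nfil3, the repressor that opposes DBP at D-boxes (0.32), and Cry2 (−0.23). In untreated mice Npas2 (−0.30) was among the 3 smallest, and in the interaction Nono (−0.28) and Nfil3 (0.64) were. The limma adjusted p of each of these was 0.287 or more.

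Genes that follow the clock in many tissues also gave 0 calls. Of 10 listed, 8 were tested under DSS, 7 in untreated mice and 8 in the interaction, with medians of 0.04, −0.03 and 0.01. At an unadjusted p under 0.05 stood 1, 0 and 1 of them, against 18.7%, 9.09% and 19.0% of all genes. Nampt, the NAD synthesis enzyme whose gene is a target of ARNTL and CLOCK, had a difference of 0.48 under DSS (SE 0.12, limma adjusted p = 0.107) and 0.51 in the interaction (SE 0.13, adjusted p = 0.0633), the closest to a call in the list. Cdkn1a (0.27) and Lonrf3 (−0.22) under DSS, Usp2 (0.23), Por (0.10) and Wee1 (−0.07) in untreated mice, and Cdkn1a (0.26) and Ppara (0.14) in the interaction completed the 3 smallest p values of each comparison.

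Signals that reset or mimic the clock were described in the same way. Among glucocorticoid-induced genes 9 were tested, 0 were called and the medians were 0.16 under DSS, −0.08 in untreated mice and 0.07 in the interaction. At an unadjusted p under 0.05 stood 2, 1 and 3 of these genes, against 18.7%, 9.09% and 19.0% of all genes. Their smallest p values were those of Dusp1 (0.46), Sgk1 (0.69) and Klf9 (−0.36) under DSS, of Errfi1 (−0.31), Sgk1 (−0.72) and Fkbp5 (0.22) in untreated mice, and of Errfi1 (0.54), Sgk1 (1.40) and Dusp1 (0.54) in the interaction. The smallest adjusted p in this list was 0.0991, for Errfi1 in the interaction.

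Among early genes induced by serum and cAMP 9 were tested, 0 were called and the medians were 0.03 under DSS, −0.21 in untreated mice and 0.39 in the interaction. At an unadjusted p under 0.05 stood 2, 2 and 3 of these genes. For this list and the next, the shares of all genes were 18.7%, 9.09% and 19.0%. Crem (0.37), Ier2 (−0.32) and Atf3 (0.40) had the smallest p under DSS, Atf3 (−0.68), Junb (−0.19) and Sik1 (−0.21) in untreated mice, and Atf3 (1.08), Crem (0.56) and Fos (0.75) in the interaction. Among fasting-induced genes 10 were tested, 0 were called and the medians were 0.17, −0.08 and 0.34 in that order of comparisons, with 2, 1 and 3 at an unadjusted p under 0.05. Slc25a20 (0.66) and Pdk4 (0.33) were among the 3 with the smallest p under DSS. In untreated mice these 3 were Pdk4 (−0.65), Acot1 (−0.31) and Plin2 (0.23), and in the interaction Pdk4 (0.98) and Acot1 (0.49) were among them. Over both lists the smallest adjusted p was 0.103.

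Markers of cell types were set beside the clock genes, because in bulk samples fewer cells of a type and less RNA per cell cannot be told apart. All 9 colon epithelium markers were tested in each comparison and 0 were called (2, 1 and 3 at an unadjusted p under 0.05 under DSS, in untreated mice and in the interaction). The shares of all genes there were 18.7%, 9.09% and 19.0%. The summed level of a marker list is the sum of its RPKM in a library. For the epithelium markers it was 15153 to 19474 RPKM in KO DSS libraries against 7913 to 12482 RPKM in WT DSS libraries, and 14358 to 18122 RPKM in KO untreated libraries against 13420 to 19317 RPKM in WT untreated libraries. The largest single part of that sum was Car1, a carbonic anhydrase of colonocytes, at 9969 to 13367 RPKM in KO DSS libraries against 3319 to 6793 RPKM in WT DSS libraries (limma adjusted p = 0.157). In WT DSS libraries 1 and 2 Car1 (4760 and 3319 RPKM) held less than the other markers together (5333 and 4594 RPKM). Without Car1 the sums overlapped under DSS, at 5184 to 6108 RPKM in KO against 4594 to 5689 RPKM in WT. Of the 9 markers, 6 had differences above 0 under DSS: Car1 (1.29), Krt20 (0.71), Epcam (0.21), Vil1 (0.13), Slc26a3 (0.08) and Krt8 (0.06). Cdh1 (−0.28), Cdx1 (−0.24) and Muc2 (−0.30) had differences below 0. The 8 leukocyte markers summed to 12.3 to 25.3 RPKM in KO DSS libraries against 6.47 to 9.75 RPKM in WT DSS libraries, and to 8.56 to 10.5 RPKM in KO untreated libraries against 7.37 to 14.0 RPKM in WT untreated libraries. Under DSS 5 of them passed the filter and 1 was called, C1qa, a complement gene of macrophages (1.71, SE 0.26, limma adjusted p = 0.0340). Under DSS, C1qa stood at 1.83, 4.92 and 2.30 RPKM in the KO libraries, against 0.117, 0.327 and 0.0574 RPKM in the WT libraries. S100a8 stood at 1.01 to 3.50 RPKM in KO DSS libraries, against at most 0.951 RPKM in WT DSS libraries. Among the DSS libraries both genes reached 1 RPKM in KO alone, so both passed the filter of that comparison through KO. In untreated mice C1qa stood at 2.34 to 3.65 RPKM in KO and 1.85 to 5.18 RPKM in WT libraries. For C1qa the WT DSS libraries were thus the low group, with no test between the tables. C1qa was also called in the interaction (1.91, SE 0.42, limma adjusted p = 0.0479). All 5 tested markers had differences above 0 under DSS, with Lyz2 at 1.09, S100a8 at 1.03, Cd3e at 0.61 and Ptprc at 0.36. At an unadjusted p under 0.05 stood 4 of 5 under DSS and 4 of 5 in the interaction, against 18.7% and 19.0% of all genes. In untreated mice 4 leukocyte markers were tested and 0 were called, with 0 at an unadjusted p under 0.05 (9.09% of all genes). Between 5 and 7 of the 8 reached 1 RPKM in a KO DSS library and 3 in each WT DSS library. Cd79a, a B cell marker, was listed at 0 in 8 of 12 libraries. The leukocyte sum was thus higher in every KO DSS library than in every WT DSS library, the direction opposite to Nr1d1, and its part in the clock gene values was not tested.

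Smooth muscle, endothelial and enteric glial markers summed to at most 4.10, 2.12 and 0.248 RPKM in any library, and stromal markers to 28.7 RPKM in 1 WT untreated library and at most 7.10 RPKM in the others. The 4 surface colonocyte markers summed to 1526 to 2211 RPKM in KO DSS libraries against 1126 to 2017 RPKM in WT DSS libraries, and to 1910 to 2221 RPKM in KO untreated libraries against 1534 to 2043 RPKM in WT untreated libraries. The 4 crypt base markers summed to 24.2 to 48.9 RPKM in KO DSS libraries against 29.2 to 38.3 RPKM in WT DSS libraries, and to 43.6 to 67.9 RPKM in KO untreated libraries against 42.8 to 61.5 RPKM in WT untreated libraries. The genotypes overlap in each of these, with 0 members called in either list in any comparison. At an unadjusted p under 0.05 stood 1, 2 and 1 of the 4 surface markers under DSS, in untreated mice and in the interaction, and 0 of the crypt markers. The shares of all genes there were 18.7%, 9.09% and 19.0%.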

How the data were processed

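RNA-seq of 12 colonocyte libraries was used as deposited. Per the submitters' processing notes, TopHat2 2.1.1 and edgeR 3.30.3 were used, with GRCm38 and mm10 as builds; no source used here gives the counter or annotation. Per the file headers, each of 2 deposited tables holds RPKM per library, and beside it the authors' F score, p-value, false discovery rate, log2 mean abundance and log2 fold change. Of 23794 gene lines per table, 26 carry date names and 4 duplicates were left out. RPKM values were whole multiples of 1 read for 100% of genes (tolerance 0.005 reads).

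KO was compared with WT within each table, and the interaction over 12 libraries, by limma 3.58.1 (R 4.3.3) on log2(RPKM + 1) with the trend option. The pseudocount of 1 RPKM understates changes of low genes. Genes needed 1 RPKM in at least 3 compared libraries, and p-values were Benjamini-Hochberg adjusted over all genes tested. The fits were tested on simulated data. Alternatives were a pseudocount of 0.1, no filter, quantile normalisation, voom on recovered reads, a gene length trend taken out, a shared spread, a replicate block and leaving out libraries. The clock genes and gene lists were chosen with earlier results of these data known. Named genes are all members, the 3 smallest p values of each list and comparison, and the 5 highest and 5 lowest r with Dbp and Arntl; Ciart, Cry2 and Npas2 in the ranking, and Nampt, were singled out after their values were seen. A few of the genes named by this rule are left out of the report. Positions are from GENCODE M21 and promoters from RefSeq GRCm38.p6. Replicate libraries differed by more than sampling noise (chi-square per degree of freedom 24.2 to 91.8).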

Additional observations from a re-analysis of the deposited data

How the results depend on the processing

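Clock genes called stayed at 0 of 10 in each comparison under every setting run, and Nr1d1 under DSS kept its sign in all of them. The other larger DSS differences kept theirs but moved by over 1.5 times with a library left out: Clock ran from −0.64 to −0.29 (−0.16 with the length trend out), Per3 from −0.64 to −0.22, Per2 from −0.64 to −0.17, Dbp from −0.63 to −0.11, Tef from −0.44 to −0.067 and Per1 from −0.39 to −0.084. Directions turned for smaller differences. Arntl under DSS was −0.0096 with a pseudocount of 0.1 RPKM, −0.043 with voom and −0.13 without WT DSS library 1 and KO DSS library 2 (chosen after the values were seen). Over single libraries left out, it ran from −0.35 to 0.29, Nr1d2 under DSS from −0.037 to 0.26, and in untreated mice Per3 from −0.079 to 0.13, Cry1 from −0.18 to 0.10, Nr1d1 from −0.11 to 0.18 and Per1 from −0.31 to 0.055. In the interaction Arntl ran from −0.29 to 0.34 and Per1 from −0.29 to 0.073.

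The count over all genes moved far more, and the cause was not tested. Under DSS (84 genes) it was 1 with no filter, 295 with the length trend out, 623 with a spread from all 12 libraries and 13 without both libraries named above. It was 364, 47 and 5 without KO DSS library 1, 2 or 3 and 2, 1 and 37 without WT DSS library 1, 2 or 3, a range of 1 to 364. In untreated mice (2 genes) it was 1 with no filter, 1 with a spread from all 12 libraries and 2 to 6 with a library left out, 6 without WT untreated library 1. In the interaction (158 genes) it was 4 with no filter, 538 with the length trend out and 1 to 433 with a library left out. The values were 433, 2, 1, 2 and 300 without KO DSS library 1 or 3 or WT DSS library 1, 2 or 3. They were 1, 4 and 1 without KO untreated library 2, 4 or 5 and 43, 39 and 2 without WT untreated library 1, 2 or 3. Without a pseudocount the mean log2 ratio of Arntl over Dbp in KO untreated libraries was −3.83. The r of Arntl and Dbp was −0.676 with the table mean taken out.

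With the replicate number as a block under DSS, 398 genes and 0 clock genes were called. The numbers were not taken as pairs, since same-numbered KO and WT libraries deviated together with an r of −0.114, 0.359 and 0.133. KO library 1 correlated best with WT library 3 and the others with their own number. No paired analysis was possible for untreated mice or the interaction because the untreated titles share a single number. The depth, with 138 reads or more per clock gene, and 3 libraries per group limit what could be called: the SE of the clock genes' differences was 0.09 to 0.31 within a table and up to 0.38 in the interaction.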
